A study of Mus musculus with 8 samples.

Results

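The transcripts described here are those of 10 genes classed as feedback inhibitors of ERK signalling. They are the MAP kinase phosphatases *Dusp4*, *Dusp5*, *Dusp6* and *Dusp7*, the Sprouty genes *Spry1*, *Spry2* and *Spry4*, and the SPRED genes *Spred1*, *Spred2* and *Spred3*. They were taken by symbol from a table of 50600 genes, and all 10 were found and passed the filter on low counts. RNA was sequenced from NF1-MET, a mouse malignant peripheral nerve sheath tumor (MPNST) line with *Met* amplification, and from NF1-MET;sgP53, made from it with a lentiviral CRISPR guide against *Trp53* and puromycin selection. Cells of both lines grew in 10% serum and received DMSO (vehicle) or 100 nM capmatinib, a MET kinase inhibitor, for 24 h, with 2 libraries in each of the 4 groups.

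All groups share the background of the tumor, which arose in a mouse with *Nf1* fl/ko alleles, a lox-stop-loxMET tg/+ transgene and, as the source of recombinase, *Plp*-creERT tg/+, in which the *Plp* promoter drives an inducible Cre in Schwann lineage cells. The paper also reports a spontaneous deletion of *Cdkn2a* in the NF1-MET line, from which NF1-MET;sgP53 was made. Each state of *Trp53*, unedited or edited, is 1 line, so what the guide did cannot be told apart from other differences between the lines. The sources used here do not say whether the NF1-MET libraries came from the empty-vector control line. The codes of these libraries begin with SEVV or SEVC, which could stand for that line but are not explained. The 2 libraries of a group came from wells treated in duplicate, so p-values measure the spread between such wells. In bulk RNA, fewer cells of a type and less RNA per cell cannot be told apart.

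Growth factor receptors such as MET signal through RAS, RAF, MEK and ERK, and active ERK turns on genes whose products damp the same cascade. DUSP4 and DUSP5 are nuclear phosphatases and DUSP6 and DUSP7 cytoplasmic ones that remove the activating phosphates from ERK, while Sprouty proteins act upstream, between the receptor and RAF. SPRED proteins bring neurofibromin, the RAS GTPase-activating protein encoded by *Nf1*, to the membrane. Transcripts of these genes are widely read as a measure of ERK output, and NF1-related tumors lack the protein that SPRED proteins recruit. ERK activity itself was not measured in the RNA libraries.

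Libraries held 30.1 M to 42.8 M counts, and levels are given as CPM, the counts scaled to a common library size after TMM scaling over all 8. Differences were tested by the quasi-likelihood method of edgeR and called at a Benjamini-Hochberg adjusted p under 0.05 over all genes tested. *Trp53* itself had a log2 fold change of -0.94 (SE 0.0327, adjusted p = 2.48e-14, edgeR) in NF1-MET;sgP53 against NF1-MET in vehicle and of -0.89 (SE 0.0290, adjusted p = 4.78e-13, edgeR) in capmatinib. Among 9 markers of the Schwann cell and neural crest lineage, *Sox2* and *Gap43* were at 1 CPM or more in every library of every group, while *Sox10*, *S100b*, *Ngfr*, *Cdh19* and *Erbb3* were not. Summed over the list, vehicle libraries had 173 to 175 CPM and capmatinib libraries 32.2 to 33.5 CPM for NF1-MET, and 122 to 124 CPM and 29.7 to 33.1 CPM for NF1-MET;sgP53, so it moved with treatment and, in vehicle, with line. The part of this shift in the results below was not tested. Summed markers reached 2.12 CPM for immune cells, 0.358 CPM for endothelial cells and 0.727 CPM for epithelial cells in any library.

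The promoters of 8 of the 10 genes were found in RefSeq (GRCm38.p6, the mm10 assembly). The entries missing are *Dusp4* and *Spry4*. The stretches upstream of *Dusp5* and *Dusp6* are shown because, of the DUSP members with an entry, these fell most and least with capmatinib. *Dusp5* is shown for chr19:53528895-53529108 and *Dusp6* for chr10:99262981-99263230, both on the plus strand, 5′ to 3′ and ending at the base before the annotated gene, with motif matches in capitals.
Dusp5: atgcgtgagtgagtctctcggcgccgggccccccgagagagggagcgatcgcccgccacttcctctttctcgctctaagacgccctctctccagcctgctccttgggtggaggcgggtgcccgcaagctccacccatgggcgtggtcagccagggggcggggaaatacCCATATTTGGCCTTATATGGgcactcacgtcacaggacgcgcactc
Dusp6: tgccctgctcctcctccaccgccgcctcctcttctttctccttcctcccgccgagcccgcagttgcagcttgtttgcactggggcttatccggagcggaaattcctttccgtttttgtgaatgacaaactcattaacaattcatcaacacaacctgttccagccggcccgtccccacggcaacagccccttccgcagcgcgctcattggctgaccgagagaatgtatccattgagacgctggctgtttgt

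The *Dusp5* stretch holds 2 adjoining matches to the CArG box, the element bound by serum response factor: CCATATTTGG, at 82 to 73 bases before the RefSeq start, and CCTTATATGG, at 72 to 63 bases. The 250 bases before the start were searched on both strands for this box, the ETS core CCGGAA, the AP-1 element TGANTCA and the cyclic AMP response element TGACGTC, none of which overlapped another in these genes. *Dusp5* was the 1 gene of the 8 with a CArG box, which 1.47% of 32851 mouse promoters hold. *Spred2* was the 1 gene with a TGACGTC match (2.78% of promoters), at 53 to 47 bases before its start. The ETS core (12.0% of promoters) and the AP-1 element (6.75%) were found in 0 of the 8, which says only that these letters are not in these windows.

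With capmatinib, *Dusp4* and *Dusp5* fell most of the 10. In NF1-MET, 9 of the 10 members were called lower and 1, *Spry1*, higher, where 34.7% of 14496 genes were called lower and 35.5% higher. In NF1-MET;sgP53, 8 were called lower and 1 higher, where 33.4% and 34.2% of 14497 genes were. The median log2 fold change of the members was -0.64 and -0.59 in the 2 lines, and 0.0020 and 0.0049 over all genes tested. Replicates did not overlap for any member in NF1-MET (9 lower, where 40.4% of all genes were lower without overlap, and 1 higher, where 43.2% were), and for 8 lower (40.6%) and 1 higher (41.9%) in NF1-MET;sgP53. At least 2-fold falls were seen for 4 members in NF1-MET (*Dusp4*, *Dusp5*, *Spred1* and *Spred3*; 5.35% of all genes) and for 2 in NF1-MET;sgP53 (*Dusp4* and *Dusp5*; 5.02%).

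**Figure D1:**
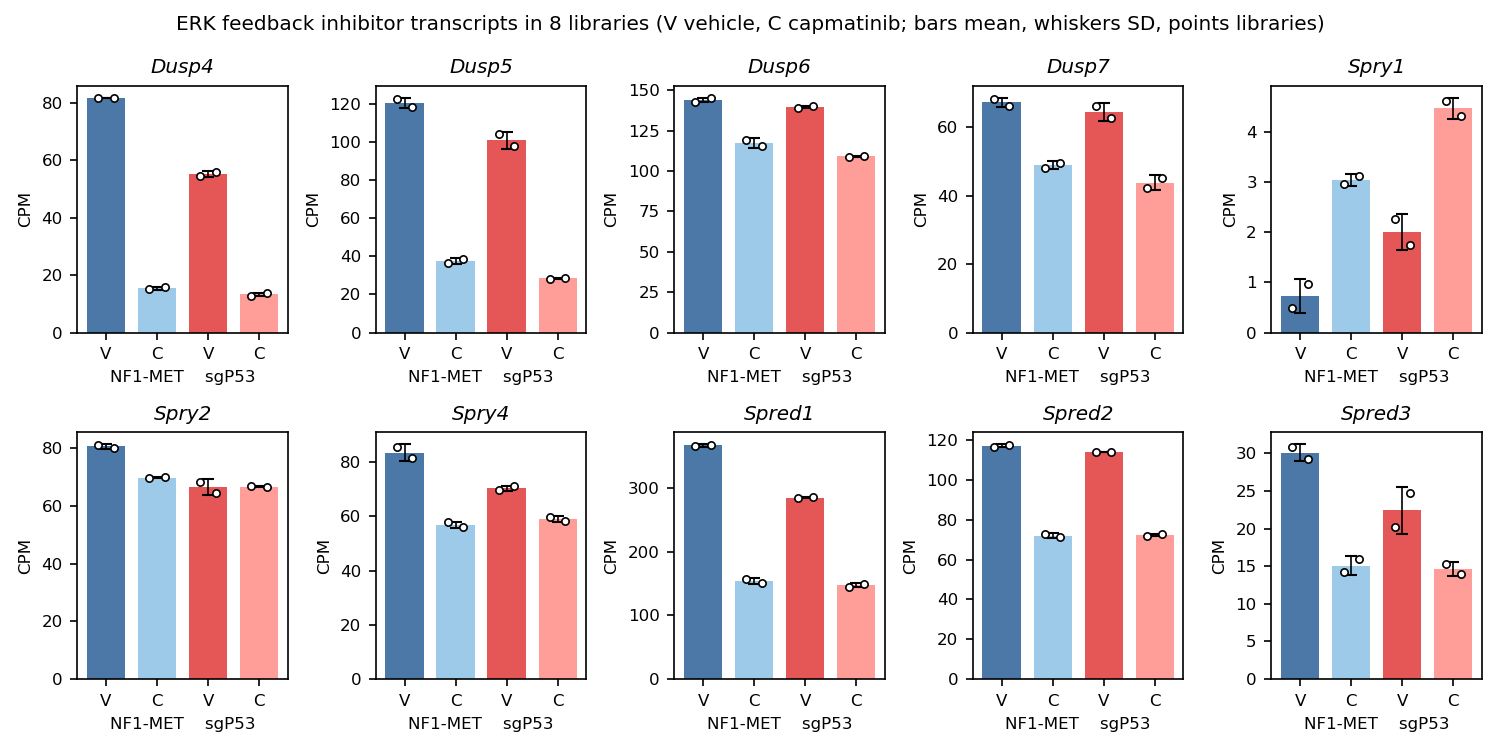
Level of each ERK feedback inhibitor transcript in CPM (vertical axis, from 0) in NF1-MET and NF1-MET;sgP53 (sgP53) cells with vehicle (V) or capmatinib (C); bars are means, whiskers SD and points the 2 libraries of a group. In NF1-MET the capmatinib libraries lie below the vehicle libraries for 9 genes and above them for *Spry1*, and in NF1-MET;sgP53 those of *Spry2* overlap.

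*Dusp4* (ENSMUSG00000031530, mm10 chromosome 8, 34807297 to 34819894), a nuclear phosphatase of ERK and other MAP kinases, had the largest fall of the 10. It measured 81.6 and 81.5 CPM in the vehicle libraries of NF1-MET and 15.0 and 15.8 CPM in its capmatinib libraries. In NF1-MET;sgP53 libraries it had 54.5 and 55.9 CPM without the drug and 12.8 and 13.7 CPM with it. The vehicle libraries of both lines lay far above the capmatinib libraries, with those of NF1-MET the highest. The log2 fold change was -2.42 (SE 0.0472, adjusted p = 3.98e-29, edgeR) in NF1-MET, a level 5.34-fold lower, and -2.06 (SE 0.0535, adjusted p = 5.14e-19, edgeR) in NF1-MET;sgP53. Of all genes tested, 1.25% had a lower log2 fold change for NF1-MET, and 1.43% for the other line.

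*Dusp5* (ENSMUSG00000034765, chromosome 19, 53529109 to 53542431), the nuclear phosphatase specific to ERK whose promoter is shown above, measured 122 and 118 CPM in the vehicle libraries of NF1-MET and 36.4 and 38.5 CPM in its capmatinib libraries. The NF1-MET;sgP53 libraries had 104 and 97.7 CPM without the drug and 28.3 and 28.6 CPM with it. The groups did not overlap, and in each treatment the NF1-MET libraries were the higher ones. Its log2 fold change was -1.70 (SE 0.0365, adjusted p = 5.78e-28, edgeR) for NF1-MET and -1.83 (SE 0.0395, adjusted p = 1.80e-20, edgeR) for NF1-MET;sgP53. The sources used here do not give the strand setting of the counting, and 22.1% of the exon bases of *Dusp5* are shared with an antisense gene, *AC137853.2*, which was not analysed here.

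*Dusp6* and *Dusp7* had smaller falls. *Dusp6* (ENSMUSG00000019960, chromosome 10, 99263231 to 99267489), an ERK-specific phosphatase, measured 143 and 145 CPM in the vehicle libraries of NF1-MET and 119.5 and 115 CPM in its capmatinib libraries. In NF1-MET;sgP53 libraries it had 139 and 140.1 CPM without the drug and 109 CPM in each library with it. Vehicle libraries were above capmatinib libraries in each line, by about as much in each. The log2 fold change was -0.31 (SE 0.0293, adjusted p = 3.44e-11, edgeR) in NF1-MET, so that 80.5% of the vehicle level was left, and -0.36 (SE 0.0337, adjusted p = 3.50e-09, edgeR) in NF1-MET;sgP53.

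*Dusp7* (ENSMUSG00000053716, chromosome 9, 106368632 to 106375724) measured 68.3 and 66.4 CPM in the vehicle libraries of NF1-MET and 48.1 and 49.7 CPM in its capmatinib libraries. The NF1-MET;sgP53 libraries had 66.4 and 62.7 CPM without the drug and 42.3 and 45.3 CPM with it. The lines overlapped neither in vehicle nor in capmatinib, by a narrow margin in vehicle. Its log2 fold change was -0.48 (SE 0.0386, adjusted p = 1.27e-12, edgeR) for NF1-MET and -0.56 (SE 0.0422, adjusted p = 8.67e-11, edgeR) for NF1-MET;sgP53. Relative to *Dusp6*, the CPM of *Dusp4* went from 0.571 and 0.562 in NF1-MET with vehicle to 0.125 and 0.137 with capmatinib, and from 0.391 and 0.399 to 0.117 and 0.126 in NF1-MET;sgP53.

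Sprouty transcripts went both ways. *Spry2* (ENSMUSG00000022114, chromosome 14, 105891947 to 105896819), an inhibitor of receptor signalling to RAS, measured 81.2 and 80.2 CPM in the vehicle libraries of NF1-MET and 69.8 and 70.0 CPM in its capmatinib libraries. In NF1-MET;sgP53 libraries it had 68.5 and 64.7 CPM without the drug and 66.9 and 66.6 CPM with it. The NF1-MET vehicle libraries were the highest, and the NF1-MET capmatinib libraries lay narrowly above all those of NF1-MET;sgP53. Within NF1-MET;sgP53 the vehicle and capmatinib libraries overlapped. In NF1-MET the log2 fold change of *Spry2* was -0.22 (SE 0.0335, adjusted p = 5.12e-07, edgeR). In NF1-MET;sgP53 the log2 fold change was 0.0049 (95% interval -0.070 to 0.079, adjusted p = 0.915, edgeR).

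*Spry4* (ENSMUSG00000024427, chromosome 18, 38586247 to 38601415), a Sprouty that also binds RAF, measured 85.6 and 81.3 CPM in the vehicle libraries of NF1-MET and 57.7 and 56.1 CPM in its capmatinib libraries. The NF1-MET;sgP53 libraries had 69.7 and 71.0 CPM without the drug and 59.7 and 58.3 CPM with it. Vehicle libraries were the higher ones in both lines, with a wider gap in NF1-MET. The log2 fold change was -0.57 (SE 0.0366, adjusted p = 3.48e-15, edgeR) for NF1-MET and -0.25 (SE 0.0346, adjusted p = 1.02e-06, edgeR) for NF1-MET;sgP53.

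*Spry1* (ENSMUSG00000037211, chromosome 3, 37639947 to 37644598) was the 1 member that rose, from few counts. The vehicle libraries of NF1-MET held 18 and 39 counts and its capmatinib libraries 82 and 120, or 0.496 and 0.978 CPM against 2.96 and 3.12 CPM. NF1-MET;sgP53 held 78 and 75 counts without the drug and 163 and 157 with it, which is 2.27 and 1.76 CPM against 4.62 and 4.33 CPM. All capmatinib libraries were above all vehicle libraries, and within each treatment NF1-MET;sgP53 was the higher line. The log2 fold change was 2.01 (SE 0.238, adjusted p = 6.22e-09, edgeR) for NF1-MET and 1.17 (SE 0.163, adjusted p = 1.43e-06, edgeR) for NF1-MET;sgP53. Of the exon bases of *Spry1*, 24.4% are shared with *Gm42922* on the other strand, which had 0 to 19 counts.

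All SPRED transcripts fell in both lines. *Spred1* (ENSMUSG00000027351, chromosome 2, 117121374 to 117182279), the best-known partner of neurofibromin, measured 365 and 368 CPM in the vehicle libraries of NF1-MET and 158 and 150.4 CPM in its capmatinib libraries. In NF1-MET;sgP53 libraries it had 284 and 285 CPM without the drug and 145 and 149.6 CPM with it. The vehicle libraries of the lines were apart, while those with capmatinib lay next to each other. The log2 fold change was -1.27 (SE 0.0259, adjusted p = 1.31e-28, edgeR) for NF1-MET and -0.95 (SE 0.0312, adjusted p = 3.58e-17, edgeR) for NF1-MET;sgP53.

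*Spred2* (ENSMUSG00000045671, chromosome 11, 19924375 to 20024026), a close relative with the same function, measured 116.5 and 118 CPM in the vehicle libraries of NF1-MET and 72.8 and 71.3 CPM in its capmatinib libraries. Both vehicle libraries of NF1-MET;sgP53 had 114 CPM, and those with the drug 72.1 and 72.9 CPM. Treatment separated the libraries and the lines were side by side. The log2 fold change was -0.72 (SE 0.0307, adjusted p = 8.24e-20, edgeR) for NF1-MET and -0.66 (SE 0.0345, adjusted p = 1.47e-13, edgeR) for NF1-MET;sgP53.

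*Spred3* (ENSMUSG00000037239, chromosome 7, 29158829 to 29170411), the third and least abundant SPRED transcript, measured 30.9 and 29.3 CPM in the vehicle libraries of NF1-MET and 14.2 and 16.0 CPM in its capmatinib libraries. The NF1-MET;sgP53 libraries had 20.2 and 24.7 CPM without the drug and 15.3 and 14.0 CPM with it, the vehicle replicates of that line being the widest apart. Its log2 fold change was -1.001 (SE 0.0640, adjusted p = 3.13e-15, edgeR) for NF1-MET and -0.62 (SE 0.0821, adjusted p = 6.04e-07, edgeR) for NF1-MET;sgP53. *Ggn*, on the other strand, shares 3.25% of its exon bases and had 61 to 100 counts. *Nf1* itself had 38.2 ± 2.48 CPM (SD, n = 2) in vehicle libraries of NF1-MET and 41.5 ± 0.269 CPM under the drug (log2 fold change 0.10, adjusted p = 0.0563, edgeR). In NF1-MET;sgP53 it had 38.0 ± 1.44 and 40.8 ± 0.104 CPM and was called higher (log2 fold change 0.10, adjusted p = 0.0493, edgeR). Its counts do not separate intact from deleted alleles.

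**Figure D2:**
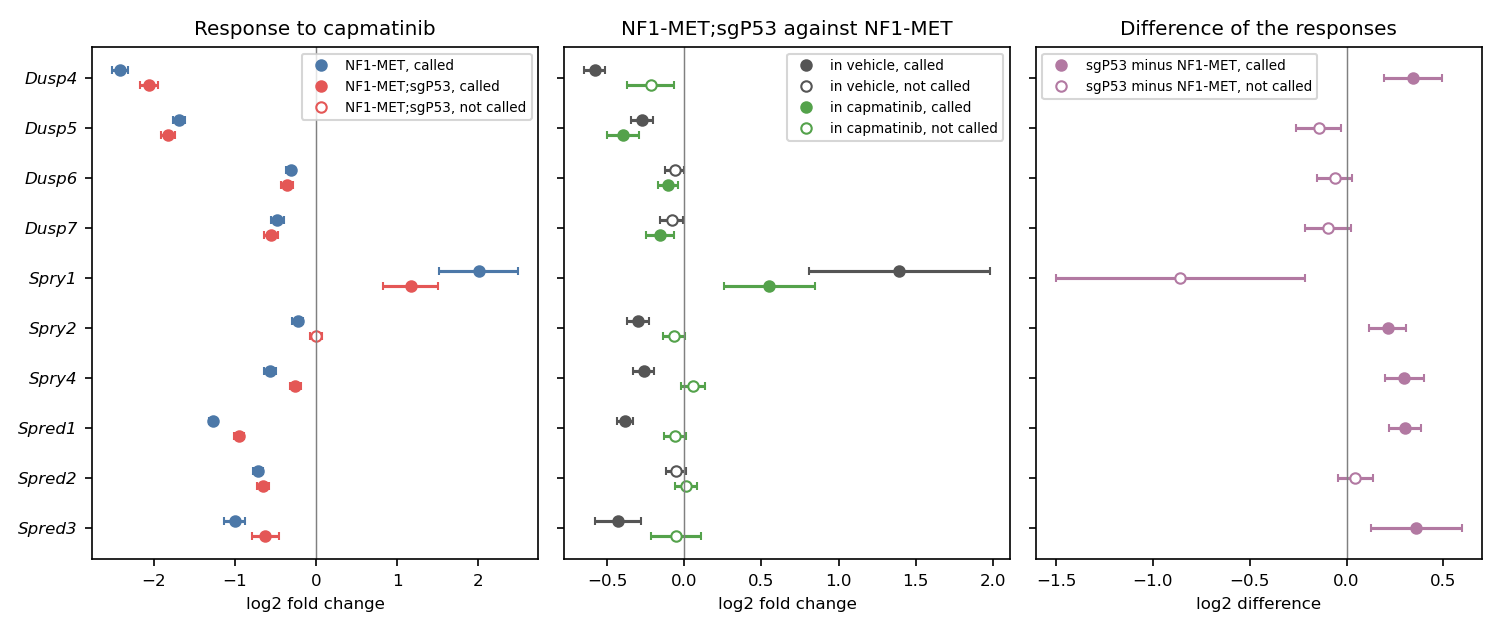
Log2 fold change of each member (horizontal axis) with its 95% interval, for capmatinib against vehicle in each line (left), NF1-MET;sgP53 against NF1-MET in each treatment (middle) and how the response differed between lines (right); filled points were called at an adjusted p under 0.05. *Dusp4* lies at -2.42 and -2.06 on the left and *Dusp6* at -0.31 and -0.36, while 5 genes lie above 0 with filled points on the right.

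In vehicle, most of the feedback transcripts were lower in the line edited at *Trp53*. Against NF1-MET, 6 members were called lower in NF1-MET;sgP53 (12.3% of 14484 genes) and 1, *Spry1*, higher (10.9%), with a median log2 fold change of -0.27 over the members and 0.0024 over all genes. *Dusp4* had the lowest log2 fold change, -0.58 (SE 0.0329, adjusted p = 5.29e-11, edgeR), followed by *Spred3* with -0.43 (adjusted p = 0.000108) and *Spred1* with -0.39 (SE 0.0249, adjusted p = 3.62e-10). The values were -0.30 for *Spry2* (adjusted p = 1.09e-06, edgeR), -0.28 for *Dusp5* (adjusted p = 4.06e-06) and -0.26 for *Spry4* (adjusted p = 5.24e-06). *Spry1* was higher by 1.40 (SE 0.280, adjusted p = 0.000896, edgeR) on the counts given above.

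*Dusp6*, *Dusp7* and *Spred2* were not called between the lines in vehicle. Their 95% intervals on the log2 scale were -0.12 to -0.0031 for *Dusp6* (adjusted p = 0.127, edgeR), -0.16 to -0.0068 for *Dusp7* (adjusted p = 0.112) and -0.12 to 0.0076 for *Spred2* (adjusted p = 0.209). Their libraries nevertheless did not overlap between the lines, as for all 10 members (9 lower, where 26% of all genes were lower without overlap, and 1 higher, where 34.5% were).

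Under capmatinib, fewer members differed between the lines. In NF1-MET;sgP53, 3 were called lower (6.34% of 14481 genes) and 1 higher (5.94%), with a median log2 fold change of -0.064. Without overlap, 6 were lower (26.6% of all genes) and 2 higher (25.7%). *Dusp5* was lower by a log2 fold change of -0.40 (SE 0.0493, adjusted p = 1.71e-05, edgeR), *Dusp7* by -0.16 (adjusted p = 0.0241) and *Dusp6* by -0.10 (adjusted p = 0.0364), and *Spry1* was higher by 0.55 (adjusted p = 0.0141). Scaled to library totals, which moved the median of all genes to 0.11, 0 members were called lower and *Dusp6* was at 0.010. Without replicate 1 of NF1-MET;sgP53 with capmatinib, 1 member (*Dusp5*) was called lower, and without any 1 of the 4 capmatinib libraries *Spry1* was not called higher.

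The response to capmatinib differed between the lines for 5 of the 10 members, all with a log2 difference above 0 (NF1-MET;sgP53 minus NF1-MET), where 3.85% of 14497 genes were called above 0 and 5.86% below. Over all genes this split was 558 above and 849 below, and it turned to 192 and 123 with library totals and to 873 and 612 without *Gm42418*, while the 5 members stayed above 0. Each of the 5 had fallen in NF1-MET and was lower in NF1-MET;sgP53 with vehicle. The difference was 0.34 for *Dusp4* (SE 0.0727, adjusted p = 0.00248, edgeR), 0.30 for *Spred1* (SE 0.0398, adjusted p = 8.64e-06) and 0.30 for *Spry4* (SE 0.0491, adjusted p = 0.000158). It was 0.21 for *Spry2* (SE 0.0468, adjusted p = 0.00343, edgeR) and 0.36 for *Spred3* (SE 0.114, adjusted p = 0.0463). With library totals 3 were called, *Dusp4*, *Spred1* and *Spry4*. The call of *Spred3* was lost without replicate 1 or without replicate 2 of NF1-MET with vehicle, and without replicate 1 of each other group.

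The same 5 members were not called between the lines under capmatinib in the fit to the capmatinib libraries alone. Their 95% intervals for NF1-MET;sgP53 against NF1-MET were -0.37 to -0.066 for *Dusp4* (adjusted p = 0.0579, edgeR), -0.14 to 0.0039 for *Spry2*, -0.025 to 0.13 for *Spry4*, -0.14 to 0.0099 for *Spred1* and -0.21 to 0.11 for *Spred3*. *Dusp4* was called lower with all 8 libraries in 1 model (log2 fold change -0.22, adjusted p = 0.0167, edgeR), without NF1-MET capmatinib replicate 1 (-0.25, adjusted p = 0.0223) and without NF1-MET;sgP53 capmatinib replicate 2 (-0.26, adjusted p = 0.0322). These comparisons and the difference of the responses share libraries and are not independent of each other.

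The other 5 members gave no call for a difference in response. The log2 differences were -0.061 for *Dusp6* (95% interval -0.15 to 0.028), -0.097 for *Dusp7* (-0.22 to 0.023), -0.14 for *Dusp5* (-0.26 to -0.030) and 0.045 for *Spred2* (-0.045 to 0.14). *Spry1* had -0.86 with a wide interval of -1.50 to -0.22 (adjusted p = 0.0882, edgeR), and was called without NF1-MET vehicle replicate 2 (log2 difference -1.45, adjusted p = 0.0198) and without the filter on low counts (adjusted p = 0.0420). *Dusp5* was called without NF1-MET;sgP53 vehicle replicate 2, at -0.19 (adjusted p = 0.0428, edgeR).

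Levels of different genes were compared as CPM per kb of exon. The length was that of all annotated exons of a gene in GENCODE M21, whichever isoforms were expressed. The SD and overlaps below reflect the 2 libraries of a group and not the uncertainty of these lengths. In NF1-MET with vehicle, *Spred1* was the most abundant at 54.1 ± 0.277 CPM per kb (SD, n = 2), followed by *Dusp5* at 48.7 ± 1.12, *Dusp6* at 46.0 ± 0.451 and *Spry2* at 38.7 ± 0.357. *Dusp4* (29.8), *Spred2* (25.4), *Dusp7* (20.1), *Spry4* (17.6), *Spred3* (4.84) and *Spry1* (0.254 CPM per kb) came next, and no neighbours in this order overlapped. With capmatinib, *Dusp6* led at 37.5 ± 0.963 and *Spry2* was next at 33.5 ± 0.0650 CPM per kb. *Dusp5* was then in place 5 at 15.1 ± 0.611 CPM per kb, overlapping both *Spred2* (15.6) and *Dusp7* (14.6), and *Dusp4* was in place 8 at 5.62 ± 0.201.

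In NF1-MET;sgP53 with vehicle, *Dusp6* was the most abundant at 44.6 ± 0.166 CPM per kb, ahead of *Spred1* at 41.9 ± 0.102 and *Dusp5* at 40.8 ± 1.80, which overlapped each other. With capmatinib the first 4 places were the same as in NF1-MET, namely *Dusp6* (34.8), *Spry2* (32.0), *Spred1* (21.7) and *Spred2* (15.7 CPM per kb). *Dusp5* was in place 7 there at 11.5 ± 0.0683 CPM per kb.

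The summed level of the 10 transcripts was 286 and 284 CPM per kb in the vehicle libraries of NF1-MET and 161 and 159.5 in its capmatinib libraries. NF1-MET;sgP53 had 244 and 241 CPM per kb without the drug and 149 and 151 with it. In vehicle the pool was larger in NF1-MET. Under capmatinib the order of the lines depended on the scaling, since with library totals in place of TMM, chosen after seeing the data, the sums were 148 and 143 CPM per kb for NF1-MET and 139.6 and 156 for NF1-MET;sgP53, which overlap. *Dusp4* and *Dusp5* together made up 54.6% and 54.02% of the summed DUSP level in vehicle libraries of NF1-MET and 27.8% and 29.3% under the drug. For NF1-MET;sgP53 these shares were 49.1% and 48.6%, then 25.4% and 25.5%. *Dusp6* and *Dusp7* thus held the larger share in every capmatinib library. They already did so narrowly in the vehicle libraries of NF1-MET;sgP53, with 50.9% and 51.4%.

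**Figure D3:**
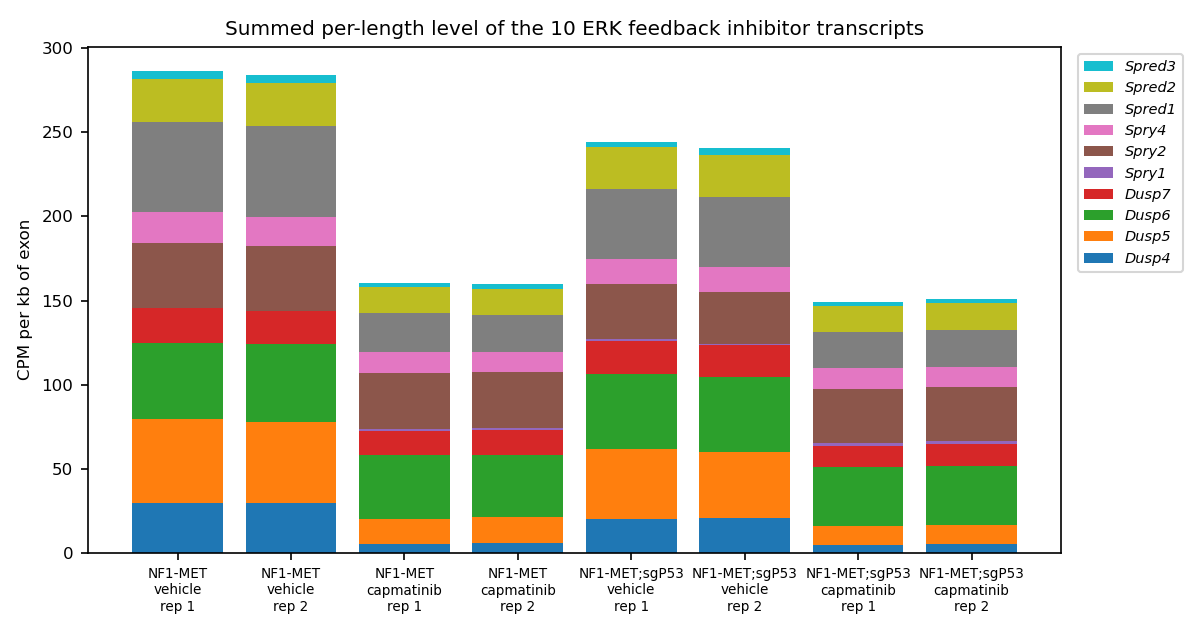
Summed level of the 10 transcripts in CPM per kb of exon (vertical axis, from 0) in each of the 8 libraries, stacked by gene. Vehicle libraries of NF1-MET reach 284 to 286 and those with capmatinib 159.5 to 161 CPM per kb, and in both lines the *Dusp5* and *Spred1* parts shrink most.

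The rest of the pathway was followed in lists of other genes. Of 6 other MAP kinase phosphatases tested (*Spry3*, on the same list, was not analysed here), 4 were called higher and 2 lower in NF1-MET, against 3 and 2 for NF1-MET;sgP53, with medians of 0.24 and 0.15. *Dusp1*, an immediate-early phosphatase of p38, JNK and ERK, rose from 43.7 ± 1.94 to 269.6 ± 1.77 CPM (SD, n = 2) in NF1-MET (log2 fold change 2.61, adjusted p = 1.32e-34, edgeR) and from 41.0 ± 1.69 to 223 ± 7.69 CPM in NF1-MET;sgP53 (2.45). It thus moved against its relatives *Dusp4* and *Dusp5*. *Dusp9*, a cytoplasmic phosphatase related to *Dusp6*, fell from 12.8 ± 0.819 to 2.39 ± 0.143 CPM in NF1-MET (log2 fold change -2.45, adjusted p = 1.76e-18, edgeR) and had a log2 fold change of -2.82 in NF1-MET;sgP53.

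Transcripts listed as driven by ERK also split. Of 11, 4 were called higher and 6 lower in NF1-MET, against 4 and 7 for NF1-MET;sgP53, with medians of -0.58 and -0.57. *Etv4*, an ETS factor induced by ERK, fell from 108 ± 3.29 to 27.2 ± 0.343 CPM in NF1-MET (log2 fold change -2.004, adjusted p = 6.78e-29, edgeR) and had -2.20 in NF1-MET;sgP53, while *Ier3*, a stress and growth factor response gene, rose by 1.10 and 1.27. In vehicle, 8 of the 11 were called lower and 1 higher in NF1-MET;sgP53 (12.3% and 10.9% of all genes), and under capmatinib 6 and 1 (6.34% and 5.94%), with medians of -0.20 and -0.18.

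The cascade itself had medians near 0. Among 17 genes of the cascade, 9 were called higher and 6 lower in NF1-MET, against 6 and 5 for NF1-MET;sgP53, with medians of 0.08 and 0.02. *Braf*, the RAF kinase gene, rose most in NF1-MET, from 37.7 ± 0.539 to 87.7 ± 0.209 CPM (log2 fold change 1.20, adjusted p = 1.79e-23, edgeR), and *Gab1*, an adaptor of MET, rose most in NF1-MET;sgP53 (log2 fold change 1.19). *Mapk3*, encoding ERK1, had the largest falls, with -0.29 and -0.23. Of 14 other negative regulators, 5 were higher and 5 lower in NF1-MET, against 6 and 6 for NF1-MET;sgP53, with medians of -0.012 and 0.013. The counts of all these lists stand beside 35.5% of all genes called higher and 34.7% lower in NF1-MET, and 34.2% and 33.4% in the other line, and nothing particular to the negative regulators is read from theirs. They included *Rasa1*, encoding a RAS GTPase-activating protein, with -1.25 and -1.20, and *Socs2* with 1.05 and 1.19.

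The drug target was followed as well. Its counts do not separate the endogenous gene from the transgene, and the sources used here do not say whether transgene reads are included. *Met* had 357 ± 7.52 CPM (SD, n = 2) in vehicle libraries of NF1-MET and 231 ± 0.970 CPM under the drug (log2 fold change -0.64, adjusted p = 2.47e-21, edgeR), and at 343 ± 1.13 and 247 ± 1.65 CPM in NF1-MET;sgP53 (-0.47, adjusted p = 2.54e-12). Its response differed between the lines by 0.16 (SE 0.0364, adjusted p = 0.00565, edgeR), on the same side of 0 as the 5 members above.

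**Figure D4:**
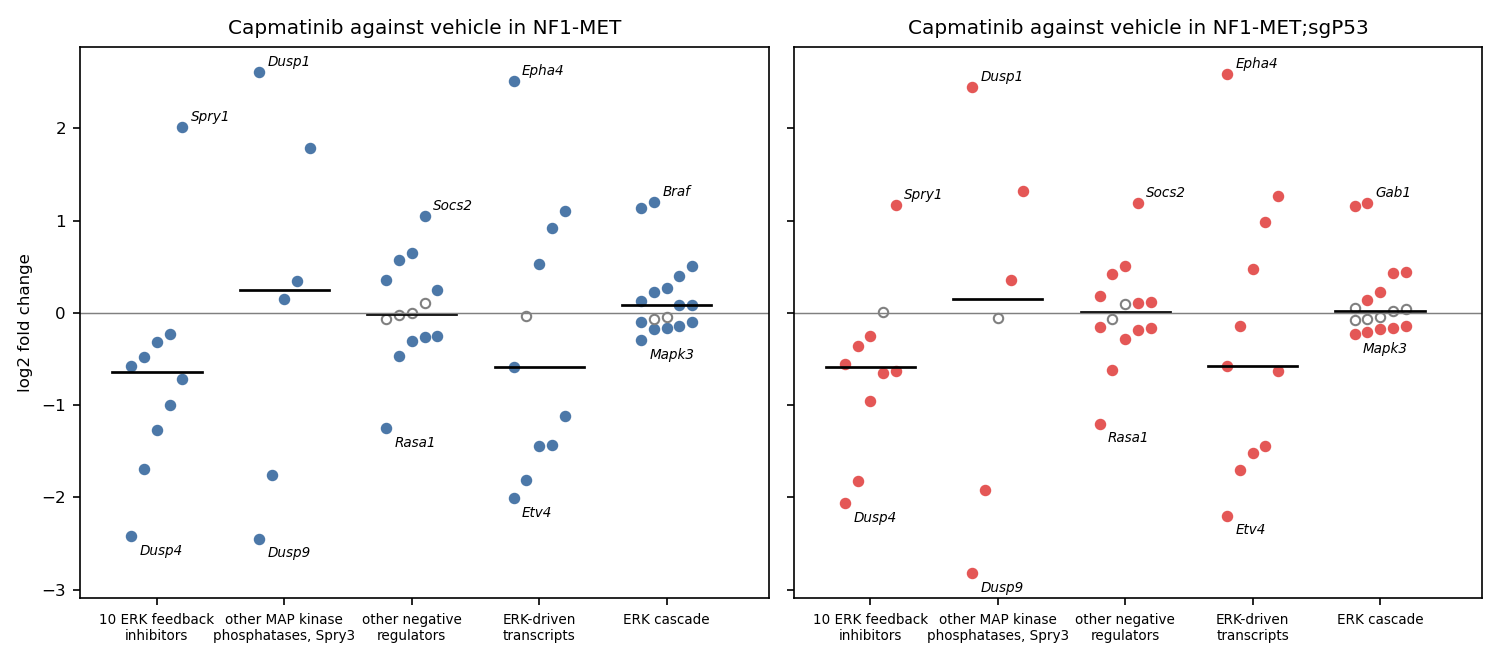
Log2 fold change with capmatinib (vertical axis) of the 10 ERK feedback inhibitors and of 4 further lists in NF1-MET (left) and NF1-MET;sgP53 (right); each point is a gene, filled where called, bars are list medians and the highest and lowest gene of each list is named. Medians lie at -0.64 and -0.59 for the feedback inhibitors and at 0.08 and 0.02 for the ERK cascade; *Epha4*, highest of its list, stayed at or below 4.11 CPM in every library.

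The genes most like 1 member of each family were found by the Euclidean distance of gene-centred log2 CPM over the 8 libraries, among 11777 genes averaging 1 CPM or more. For *Dusp6* they were *Coq2* (distance 0.0671), *Etnk1* (0.0714) and *Ptp4a2* (0.0778), against a median distance of 0.690 over all genes. For *Spry2* they included *Ube2e2* (0.0739) and *Tyk2* (0.0803), against a median of 0.666. For *Spred1*, which moved further, they were *Gsto1* (0.123), *Ralgds* (0.142) and *Mtmr10* (0.166), against 1.64.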

How the data were processed

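Libraries were made from 500 ng of total RNA per the labels, and the submitters' processing notes name bcl2fastq 1.9.0, Trim Galore 0.4.2, FastQC 0.11.7 and STAR 2.5.2b with mm10. The values deposited by the authors are raw gene counts from STAR, neither normalized nor filtered, and each of the 8 columns was matched to its sample by the label. The annotation release and strand setting are not given in the sources used here. A gene was kept if 2 or more libraries had 10 or more counts (14497 of 50600; the rest held 0.0396% of counts) and 2 or more libraries of the comparison were above 0. TMM factors were computed within each comparison, and edgeR 4.0.16 (R 4.3.3, limma 3.58.1) quasi-likelihood F-tests in their original form were adjusted by the Benjamini-Hochberg method. Standard errors came from the log2 fold change and F. The 5 comparisons were treatment in each line, line in each treatment, and their interaction. Procedures were tested on simulated data. *Gm42418*, a gene overlapping ribosomal RNA, held 1.11% to 13.1% of counts, and leaving it out was an alternative, as were DESeq2 1.42.0, other scaling, other filters, the replicate number as a block, and each library left out. GENCODE M21 held 99.6% of the identifiers. The text names all members, *Trp53*, *Nf1* and *Met*, the largest called rise and fall of each list at a mean of at least 10 CPM, and the 3 genes most like *Dusp6*, *Spry2* and *Spred1*, of which 1 is not reported here; *Epha4*, and the promoters shown, were chosen after values were seen. The members and lists were chosen with earlier results of these data known.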

Additional observations from a re-analysis of the deposited data

Results flagged for a closer look

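The response to capmatinib differed between NF1-MET and NF1-MET;sgP53 for 5 of the 10 feedback inhibitors by edgeR's interaction test over the 8 libraries, with log2 differences (NF1-MET;sgP53 minus NF1-MET) of 0.34 for *Dusp4*, 0.21 for *Spry2*, 0.30 for *Spry4*, 0.30 for *Spred1* and 0.36 for *Spred3*. For 4 of these genes the fall was smaller in NF1-MET;sgP53, and *Spry2* was not called changed there. The values for *Spry2* and *Spred3* were not called with library totals.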

How the results depend on the processing

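Of 680 log2 fold changes of members recomputed under the alternatives, 638 kept their direction and their side of the threshold, 22 lost their call, 6 gained one and 14 changed sign, and none of the last was called. All 130 values for capmatinib in NF1-MET were kept. The number of members called lower under capmatinib in NF1-MET;sgP53 against NF1-MET, 3, was 0 with library totals, 1 with DESeq2's Wald test and 1 to 3 with a library left out; the number called higher, 1, was 0 with DESeq2's Wald test and 0 with each library left out. For the difference of the responses, the number above 0, 5, was 3 with library totals and 4 to 5 with a library left out, and the number below 0, 0 by edgeR and by DESeq2's Wald test (by edgeR 2, *Dusp5* and *Spry1*, at an unadjusted p under 0.05), was 1 without the filter on low counts and 0 to 1 with a library left out. Where a library was left out, the 7 others were fitted together, so the lone library of its group is assumed to vary like the rest. Changes of sign were to -0.0022 (DESeq2's size factors), -0.12 (library totals), -0.0025 (DESeq2's Wald test), -0.013 (no filter) and -0.037 (without NF1-MET;sgP53 vehicle replicate 2) for *Spry2* with capmatinib in NF1-MET;sgP53, whose range with a library left out was -0.037 to 0.045. With library totals *Spred2* went to 0.00092 between the lines in vehicle, and *Dusp6*, *Spry2*, *Spred1* and *Spred3* to 0.010, 0.049, 0.053 and 0.066 in capmatinib, and *Dusp6* to 0.017 for the difference of the responses. Without a library, *Spred2* in capmatinib ranged from -0.0069 to 0.023 and *Spred3* from -0.13 to 0.042 (0.042 without NF1-MET capmatinib replicate 2 and 0.021 without NF1-MET;sgP53 capmatinib replicate 2). The cause was not tested. Library totals moved the median of all genes to -0.18 and -0.12 for capmatinib in the 2 lines. Over all genes, the numbers called higher and lower went with library totals from 5140 and 5029 to 3508 and 6381 for capmatinib in NF1-MET, from 4963 and 4841 to 3260 and 4933 in NF1-MET;sgP53, from 1580 and 1775 to 1280 and 743 between the lines in vehicle, and from 860 and 918 to 537 and 129 in capmatinib. DESeq2's Wald test gave 833 and 1100, then 436 and 434, between the lines, and 433 and 461 for the difference of the responses (558 and 849 by edgeR). The replicate number shared by the groups is not said to mark a batch, and correlations of same-numbered deviations were -0.05 to 0.10; with it as a block the counts of members called lower stayed at 9, 8, 6, 3 and 0 and no call of a member changed. Depth limits *Spry1*, whose smallest library had 18 counts.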
